A study of Mus musculus with 4 samples.

Results

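The 10 genes described here encode the TRAF adaptors and the proteins around A20 that limit NF-κB signalling. They were chosen by symbol as Traf1, Traf2, Traf3, Traf4, Traf5, Traf6, Tnfaip3, Tnip1, Birc3 and Cyld, and all 10 were found among 50600 gene identifiers. They were measured by RNA sequencing in T-helper 17 (Th17) cells of the mouse, CD4 T cells that make interleukin 17. The cells were primary cells of strain C57BL/6NJ, prepared by a CD4 T cell differentiation protocol that the labels link, and the 4 libraries are biological replicates 1 to 4 of 1 group without a control. The labels give 1 donor identifier for all 4 biosamples and do not say whether these came from separate animals or cultures, so each SD and p-value covers only the spread between these libraries. A tag of 2 hours stands in the file headers of every library with no starting event named, and the labels give no agent or dose.

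TRAF proteins bind the cytoplasmic tails of TNF receptor family members, or adaptors such as MyD88, and most act as ubiquitin ligases or hold such ligases in place. The ubiquitin chains they build recruit the kinases that switch on NF-κB. A20, encoded by Tnfaip3, takes these chains apart or replaces them, helped by its partner ABIN-1 (Tnip1), and CYLD removes them separately. Tnfaip3, Birc3 and Traf1 are textbook NF-κB target genes, so their products feed back on the pathway that induces them. In helper T cells the pathway serves the T cell receptor as well as TNF family costimulation and interleukin 1.

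Each library held between 25847970 and 40652146 counted fragments. Sex-linked genes set replicates 1 and 2 apart from replicates 3 and 4. Xist was under 1 TPM in replicates 1 and 2 and at 142 and 76.5 TPM in replicates 3 and 4. Ddx3y on the Y chromosome was at 305 and 213 TPM in the first pair and at 0.914 and 1.39 TPM in the second. This is a male pattern in replicates 1 and 2 and a female pattern in replicates 3 and 4, although the labels give 1 donor identifier. The spread between libraries includes any difference that goes with it, which was not tested for the members. TPM is the count per exon length, scaled so that each library sums to the same total; CPM, used further on, is the same without the length. All 6 T cell markers were at 1 TPM or more, with a summed level of 5929 to 6301 TPM. Of 8 Th17 markers 5 reached 1 TPM, and their sum was only 30.2 to 49.01 TPM; Il17a stood at 5.65 TPM on 245 counts, and Il23r and Ccr6 were below 1 TPM on 11 and 15 counts in all. B cells and myeloid cells also use several of these genes. The 8 B cell markers summed to 0.487 to 2.08 TPM with Ms4a1 at 0 counts, and the 9 myeloid and dendritic markers to 6.60 to 18.6 TPM, most of it Cd68, with Siglech at 0 counts and Lyz2 on 2 counts. The 5 NK markers summed to 12.7 to 17.1 TPM, most of it Klrd1. Klrd1 stood at 10.5 TPM, Gzma at 3.14 TPM and Eomes at 1.12 TPM, while Ncr1 and Klrb1c had 0 counts. The 2 CD8 markers summed to 21.2 to 31.2 TPM, nearly all of it Cd8b1, with Cd8a on 32 counts. The 7 early activation genes, which include Nr4a1 and Egr1, all reached 1 TPM and summed to 25625 to 27601 TPM. Most of this sum was Nr4a1, at a mean of 14458 TPM, and the lowest of the 7 was Il2ra at 84.2 TPM. The part of other cells in the levels of the members was not tested. In bulk RNA, fewer cells of a type and less RNA per cell cannot be told apart.

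Since several of these genes are known NF-κB targets, the windows around their start sites are shown first. RefSeq windows on GRCm38.p6, reaching from 250 bases before to 50 bases after a start site, were searched for the NF-κB consensus motif by name on both strands, without a mismatch, and overlapping matches were merged. The table held 11 windows for the 10 members, with a second, matchless one for Tnfaip3, and 4 of the 10 genes held a match: Tnfaip3, Tnip1, Cyld and Traf3. Of all 32851 windows of the same length 4.51% held one, as did 5.14% of genes. Each sequence below is 30 bases, 5′ to 3′ on the gene's own strand, with the match in capitals, and the inhibitor gene Nfkbia is given for reference.
Tnfaip3, chr10:19015516-19015545, minus strand, match begins 125 bases before the start: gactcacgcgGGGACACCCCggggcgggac
Tnfaip3, chr10:19015403-19015432, minus strand, match begins 12 bases before the start: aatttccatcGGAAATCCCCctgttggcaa
Tnip1, chr11:54962978-54963007, minus strand, match begins 58 bases before the start: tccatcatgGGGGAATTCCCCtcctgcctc
Cyld, chr8:88696863-88696892, plus strand, match begins 155 bases before the start: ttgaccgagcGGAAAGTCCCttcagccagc
Traf3, chr12:111166350-111166379, plus strand, match begins 10 bases before the start: ggcggcccgcGGGGATTTCCagcgcgcgag
Nfkbia, chr12:55492657-55492686, minus strand, match begins 29 bases before the start: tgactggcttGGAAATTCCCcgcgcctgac
The Tnip1 match is a palindrome-like run that reads as the motif on both strands in 4 overlapping placements. The second Tnfaip3 match and those of Cyld and Nfkbia read as the motif on the strand opposite to the gene. Each distance is from the RefSeq start of the window that held the match. For Tnfaip3 both matches lie inside the gene span given below, which reaches to 19015657. A match describes these letters and is not a measured binding site; no match was found in the windows of Birc3, Traf1, Traf2, Traf4, Traf5 and Traf6.

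All 10 members were expressed in every library, and their mean levels ran from 12.7 to 534 TPM. The median member stood at 114 TPM, against 24.9 TPM for the 9831 protein coding genes with a mean of 1 TPM or more and 63.01 TPM for the 97 other pathway genes listed further on. The ubiquitin ligase gene Birc3 and the A20 gene Tnfaip3 led. Traf5 was lowest, at 12.7 TPM against 53.4 TPM for the next member, and was the only one below the median expressed coding gene.

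**Figure D1:**
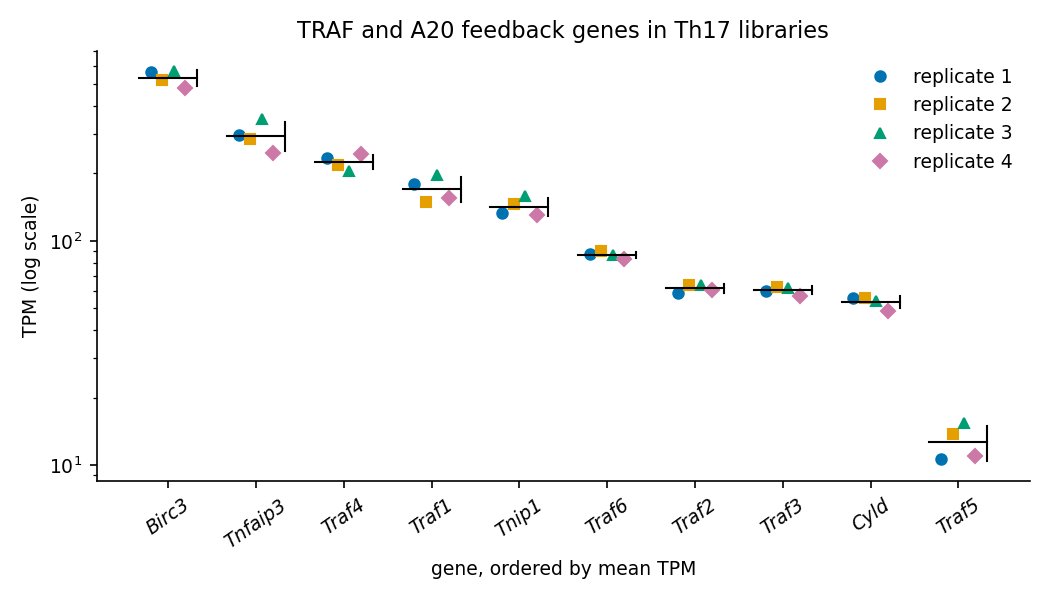
TPM on a log axis for each of the 10 genes, 1 point per library, with the mean as a horizontal line and ± 1 SD as a vertical bar (n = 4 libraries). Birc3 lies highest at a mean of 534 TPM and Traf5 lowest at 12.7 TPM, and the 4 libraries of each gene lie within 1.45 times of each other.

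Tnfaip3 encodes A20, the ubiquitin-editing enzyme that ends NF-κB signalling. Its level was 296, 283, 350.5 and 245 TPM in replicates 1, 2, 3 and 4 (294 ± 43.4 TPM, SD, n = 4), on 80416 counts in all. Replicate 3 was the highest library and replicate 4 the lowest, 1.43 times apart. The gene lies on chromosome 10 from 19000910 to 19015657 on the minus strand in mm10, and its rank was 481 among the expressed coding genes.

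Tnip1 encodes ABIN-1, which binds ubiquitin chains and A20. It stood at 133, 146, 159 and 130.4 TPM in replicates 1 to 4 (142 ± 13.1 TPM, SD, n = 4). Replicates 1 and 4 were low and replicate 3 high, with 1.22 times between the extremes. Tnip1 lies on chromosome 11 from 54910785 to 54962917, minus strand.

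Cyld encodes a deubiquitinase that trims the same kinds of chains independently of A20. Its level was 55.4, 55.7, 54.1 and 48.5 TPM (53.4 ± 3.35 TPM, SD, n = 4), so replicates 1 to 3 lay close together and replicate 4 was lowest. Cyld lies on chromosome 8 from 88697028 to 88751945, plus strand.

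Birc3 encodes cIAP2, a ubiquitin ligase that TRAF2 brings to TNF receptors. It stood at 565, 520.1, 570.1 and 481 TPM (534 ± 41.7 TPM, SD, n = 4), at rank 239 of the expressed coding genes. Replicates 1 and 3 were high and replicate 4 low, only 1.18 times apart. Birc3 lies on chromosome 9 from 7848699 to 7873186, minus strand. Of its distinct 31-base words 11.3% also occur in transcripts of other genes, the most, 5.34%, in the processed pseudogene Gm7019, and fragments with several alignments are missing from its count.

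The 4 feedback genes were then compared in pairs within each library. Tnfaip3 exceeded Tnip1 by 1.04 ± 0.12 on the log2(TPM + 1) scale, which is 1.88 to 2.23 times in TPM, in 4 of 4 libraries. It exceeded Cyld, the other deubiquitinase, by 2.43 ± 0.17 in 4 of 4 libraries. Nfkbia encodes IκBα, which holds NF-κB in the cytoplasm and is itself an NF-κB target; it stood at 1030.4, 1106, 1067 and 993 TPM, and Tnfaip3 lay below it by -1.84 ± 0.18 in 4 of 4 libraries. Birc3 exceeded Birc2, which encodes the related ligase cIAP1 and stood at 119, 117, 138 and 106 TPM, by 2.14 ± 0.08, or 4.12 to 4.73 times. Each had p = 0.125 in the exact two-sided sign-flip permutation test (adjusted p = 0.139 over 10 pairs). With 4 libraries 0.125 is the smallest p the test can give, so no pair could pass 0.05.

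Among the TRAF genes Traf4 had the highest level with the deposited exon length, though not with the transcript length given further on. TRAF4 is known mainly from epithelial and neural tissue and also takes part in interleukin 17 receptor signalling. It stood at 234, 218, 206 and 244 TPM (225 ± 16.9 TPM, SD, n = 4). Replicate 4 was highest and replicate 3 lowest, the reverse of Tnfaip3, and the highest Traf4 library stayed just under the lowest Tnfaip3 library. Traf4 lies on chromosome 11 from 78158499 to 78165589, minus strand.

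Traf1, the member of the family that lacks a RING domain and joins TRAF2 in mixed complexes, stood at 179, 149, 196 and 156 TPM (170.1 ± 21.5 TPM, SD, n = 4). Replicates 1 and 3 were high and replicates 2 and 4 low, 1.31 times apart at the extremes. Traf1 lies on chromosome 2 from 34941750 to 34961772, minus strand.

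Traf6, which carries signals of the interleukin 1 and Toll-like receptors, was among the steadiest by TPM. Its level was 86.95, 90.1, 86.5 and 82.8 TPM (86.6 ± 3.01 TPM, SD, n = 4), a coefficient of variation of 3.47%. This depends on the scaling. With the TMM scaling used further on, its log2 CPM minus its mean ran from -0.12 to 0.11, a wider range than that of Birc3 (-0.08 to 0.09). Traf6 lies on chromosome 2 from 101678429 to 101701669, plus strand.

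Traf2 and Traf3 encode partners that, with the cIAP ligases, hold the kinase NIK at a low level and so restrain the alternative NF-κB pathway. Traf2 stood at 58.4, 63.6, 63.5 and 60.1 TPM (61.4 ± 2.56 TPM, SD, n = 4). Traf3 stood at 60.05, 62.5, 61.5 and 56.9 TPM (60.2 ± 2.42 TPM, SD, n = 4). The ranges overlapped, and the order of these genes changed between libraries: Traf3 was lower in 3 of 4. Traf2 lies on chromosome 2 from 25517982 to 25546940, minus strand, and Traf3 on chromosome 12 from 111166370 to 111267153, plus strand.

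Traf5 encodes an adaptor that works beside TRAF2 at costimulatory TNF receptors and is also known to dampen interleukin 6 signalling in CD4 T cells. It stood at 10.6, 13.8, 15.4 and 10.9 TPM (12.7 ± 2.31 TPM, SD, n = 4), on 2200 counts in all. Replicates 2 and 3 were high and replicates 1 and 4 low. Its coefficient of variation, 18.2%, was the widest of the 10, and its counting error in the library with the fewest counts for it was 5.09%, against 0.733% to 2.05% for the others. Traf5 lies on chromosome 1 from 191997205 to 192092559, minus strand. It was the only member whose exons overlap those of another gene on the same strand, by 65 bases of Mir3473c, and 6.18% of its 31-base words are shared with other genes.

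The 6 TRAF genes together stood at 629, 597, 629 and 610.2 TPM. Traf4 made up 36.6 ± 2.98% of this sum and Traf1 27.6 ± 2.86%. Traf6 followed with 14.1 ± 0.699%, Traf2 with 9.97 ± 0.566%, Traf3 with 9.78 ± 0.493% and Traf5 with 2.06 ± 0.376% (SD, n = 4 libraries). With the deposited exon length Traf4 had the largest share in every library, from 32.7% in replicate 3 to 39.9% in replicate 4, and replicate 3 was also the library where Traf1 came nearest to it, at 31.2%. With the longest coding transcript as length Traf1 was above Traf4 in 4 of 4 libraries.

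In the paired comparisons Traf1 exceeded Traf2 by 1.45 ± 0.19 on the log2(TPM + 1) scale and Traf5 lay below Traf2 by -2.20 ± 0.19, each in 4 of 4 libraries. Traf6 exceeded Traf2 by 0.49 ± 0.06 and Traf3 by 0.52 ± 0.02, again in 4 of 4. The ratio of Traf6 to Traf3 was the most constant of the 10, 1.41 to 1.45 times in TPM. Traf4 exceeded Traf5 by 4.06 ± 0.35, with a wide range of 13.3 to 22.3 times. All of these reached the smallest possible value in the exact permutation test, p = 0.125 (adjusted p = 0.139). Traf3 minus Traf2 was -0.03 ± 0.05, with single libraries between -0.08 and 0.04 (p = 0.375, adjusted p = 0.375, same exact test), which is smaller than the spread between libraries.

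**Figure D2:**
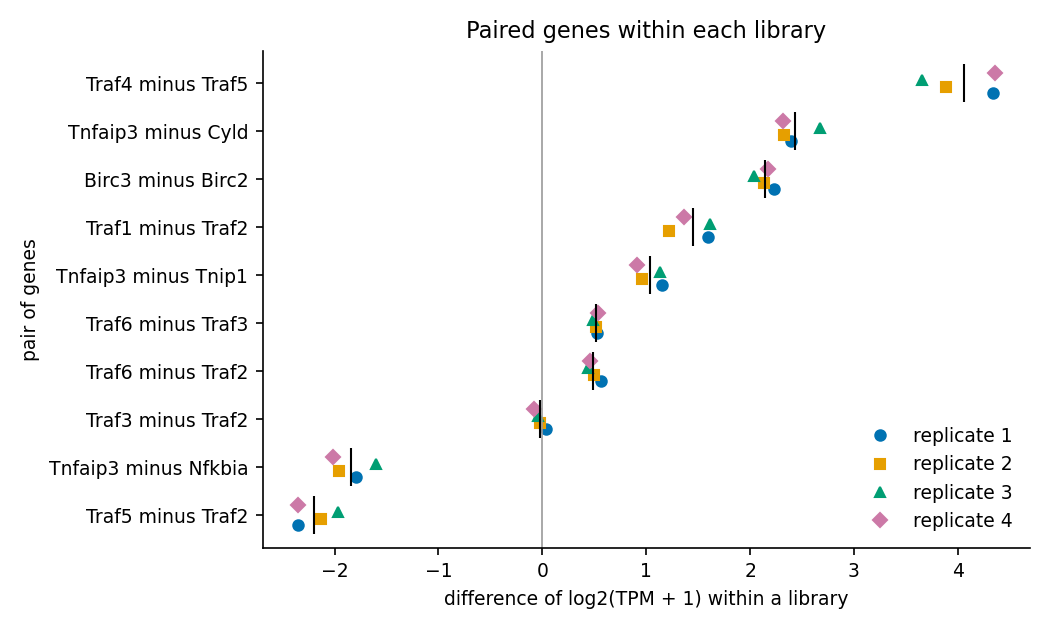
Difference of log2(TPM + 1) between the genes of each pair, 1 point per library, with the mean as a black tick; the grey line marks no difference. In 9 of the 10 pairs every library lies on the same side of the line; Traf3 minus Traf2 lies across it, from -0.08 to 0.04.

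By mean TPM the order was Birc3, Tnfaip3, Traf4, Traf1, Tnip1, Traf6, Traf2, Traf3, Cyld and Traf5. The ranges of neighbours in this order did not overlap, except for Traf1 with Tnip1 and Traf2 with Traf3. Traf1 was still above Tnip1 within each of the 4 libraries. The order depends on the length by which counts are divided. The deposited length is the union of all annotated exons, and for Traf1 this was 8819 bases, 2.57 times its longest coding transcript of 3436 bases; the ratio was 2.32 for Traf5 and 1.04 for Traf3. When the longest coding transcript was the length, the counts over all exons were kept. Fragments from exons outside that transcript were thus not removed, and their share was not examined. On this length Traf1 rose to 326 ± 40.4 TPM and passed Traf4 (266 ± 20.3 TPM) in 4 of 4 libraries. Cyld (62.5 ± 3.92 TPM) passed Traf3 (46.8 ± 1.87 TPM) in 4 of 4. Traf1 then had 39.6 ± 3.42% of the TRAF sum and Traf4 32.5 ± 3.06%. Traf3 minus Traf2 became -0.70 ± 0.05, so of these 2 lengths only the union gives near equality. Birc3 and Tnfaip3 remained first and second and Traf5 last under both lengths.

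**Figure D3:**
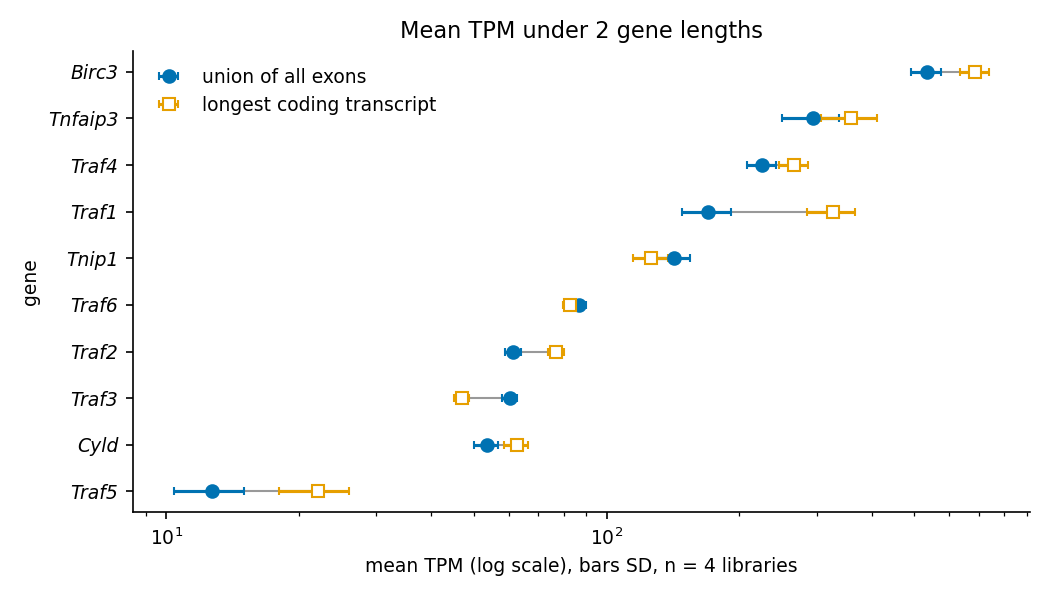
Mean TPM (log axis, bars ± 1 SD, n = 4 libraries) of each gene with the union of its exons (filled circles) and with its longest coding transcript (open squares) as length. Traf1 moves from 170.1 to 326 TPM and crosses Traf4, and Cyld and Traf3 change places.

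The next question was whether any member differed between libraries by more than genes of like abundance. No member was called: 0 of 10 had an adjusted p under 0.05 in edgeR, where 0.813% of 11567 tested genes were called. In the same test 0 of 10 had an unadjusted p under 0.05 (5.98% of all tested genes did). With DESeq2's dispersion trend 0 of 10 were called as well. With so low a share called over all genes, 0 of 10 says little about the members. A gene that is not called may still differ between libraries. The lowest unadjusted p was 0.396, for Traf5, with an adjusted p of 1.0 (edgeR). The deviance of each member, which averages 3 for a gene that follows the trend, was between 0.363 for Birc3 and 2.97 for Traf5, and 68.8% of all tested genes were below 3. The coefficients of variation in TPM ran from 3.47% to 18.2%, and the highest library exceeded the lowest by 1.09 times for Traf2 and Traf6 to 1.45 times for Traf5. Only 1 group was sequenced, so the test compares libraries and no condition.

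Small differences between libraries were not the same for all members. By TPM, 5 members were highest in replicate 3 (Tnfaip3, Tnip1, Birc3, Traf1 and Traf5), 4 in replicate 2 (Traf2, Traf3, Traf6 and Cyld) and Traf4 in replicate 4. Which library is highest or lowest depends on the scaling. With TMM, which equalizes the bulk of genes, only Tnfaip3 and Traf1 were still highest in replicate 3. Under TMM 6 members were highest in replicate 2. By TPM 6 members were lowest in replicate 4, against 2 with TMM, where Cyld was lowest in replicate 3. Traf4 was highest in replicate 4 and lowest in replicate 3 under both scalings. The nuclear RNA Malat1, at 427, 209, 795 and 188 TPM, had the same order of libraries as Tnfaip3 over a range far wider, and its part in the differences of Tnfaip3 was not tested.

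**Figure D4:**
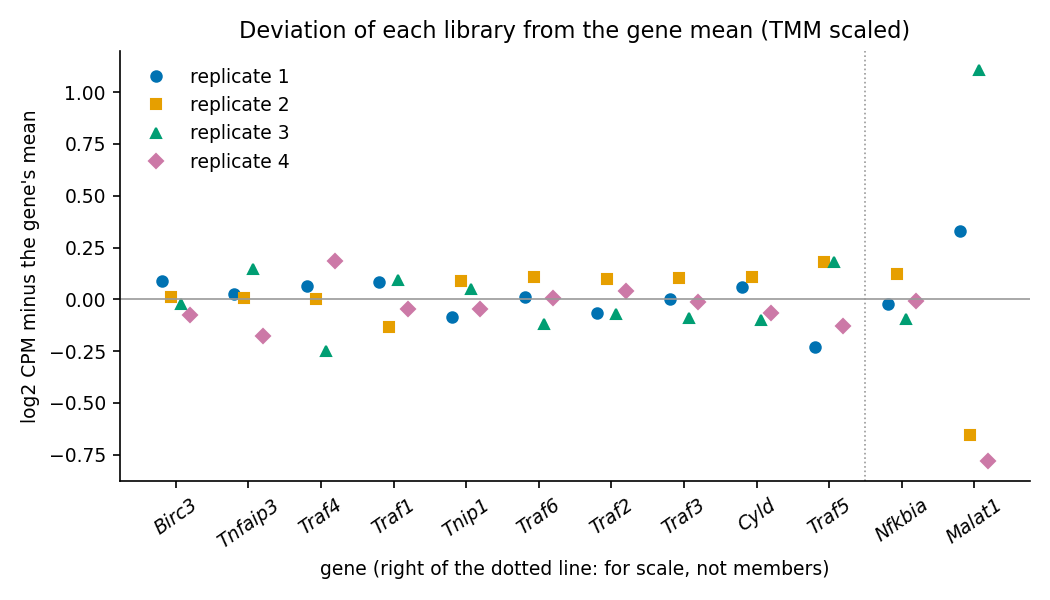
Log2 CPM (TMM scaled) of each library minus the gene's mean over 4 libraries; the dotted line separates the 10 members from Nfkbia and Malat1, shown for scale. Members stay between -0.25 and 0.18, Traf4 in replicates 3 and 4 being at the ends, whereas Malat1 spans -0.78 to 1.11.

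As a description of likeness, the root mean square distance between these centred profiles was taken to each of 87 tested pathway genes. Over only 4 libraries such distances carry little information, and no correlation is given. The genes named are the nearest of the 87, and counting error was not taken into account. Some had few counts, such as Tnfrsf9 with 787 and Tradd with 1250 in all. Traf3 lay nearest to Nfkbia (0.016 log2 units) and Tab3 (0.020), and Traf6 to Tab3 (0.019) and Map3k14 (0.022). Tnfaip3 lay nearest to Birc2 (0.050) and Traf3ip3 (0.052), Traf1 to Tradd (0.025) and Irak1 (0.053), and Traf2 to Myd88 (0.025) and Tax1bp1 (0.031). Traf4 lay nearest to Tnfrsf9 (0.022) and Ube2n (0.024), and Birc3 to Itch (0.023) and Relb (0.030). Tnip1 lay nearest to Ripk1 (0.027) and Icam1 (0.041), and Cyld to Tab3 (0.026) and Itch (0.043).

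The rest of the pathway was described through 97 genes listed by role, of which 86 had a mean of 1 TPM or more; 0 of the 87 tested were called as varying (edgeR, adjusted p under 0.05), against 0.813% of all tested genes. Of the 87, 1 gene, Nfkb1, had an unadjusted p under 0.05, against 5.98% of all tested genes; its adjusted p was 0.0978, and it was called with DESeq2's dispersion trend and without replicate 3. Of 18 receptors that bind TRAF proteins directly or through adaptors 11 reached 1 TPM. The highest was Tnfrsf1b, which encodes TNF receptor 2, at 824 ± 84.8 TPM, and the lowest was Il17rc, a chain of the interleukin 17 receptor, with 1 count in all. Of 16 proximal adaptors 15 reached 1 TPM, from the interleukin 1 and Toll-like receptor adaptor Myd88 at 284 ± 16.9 TPM down to Tifa, a TRAF6-binding protein, at 0.184 TPM on 22 counts. All 4 genes that link the antigen receptor to NF-κB did, led by Malt1, a protease that cuts A20, at 272 ± 40.8 TPM.

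All 12 kinase genes reached 1 TPM, from Map3k8 at 139 ± 20.3 TPM to Tab1, a partner of the kinase TAK1, at 11.03 ± 2.20 TPM. All 8 ubiquitin conjugation genes did, from Birc2 at 120.4 ± 13.4 TPM to Ube2v1 at 2.91 ± 0.750 TPM. Of the distinct 31-base words of Ube2v1 59.9% also occur in transcripts of other genes. Fragments with several alignments are missing from its count, so its low level is not read as low expression. Of 13 further genes of the A20 complex and deubiquitinases 12 reached 1 TPM. Tax1bp1, which helps A20 reach its substrates, was highest at 143 ± 7.93 TPM. Tnip3, a relative of Tnip1, was lowest at 0.0639 TPM on 26 counts. With the deposited exon length, Tnip1 at 142 TPM and Tax1bp1 at 143 TPM thus differed by less than the spread of either. Both lay below Tnfaip3 with this length. Tax1bp1 was not examined with the transcript length.

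All 11 NF-κB subunits and inhibitors reached 1 TPM, and their median of 246 TPM was the highest of the 8 roles. The nuclear inhibitor gene Nfkbid led at 3204 ± 304 TPM, and Nfkbie was lowest at 114 ± 16.3 TPM. Of 19 early NF-κB target genes 17 did, with Nfkbia highest at 1049 ± 48.6 TPM and the cytokine gene Csf2 lowest on 9 counts in all. Within this span Birc3 at 534 TPM and Tnfaip3 at 294 TPM lay above the median early target gene, 80.4 TPM, and Traf1 at 170.1 TPM did as well.

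**Figure D5:**
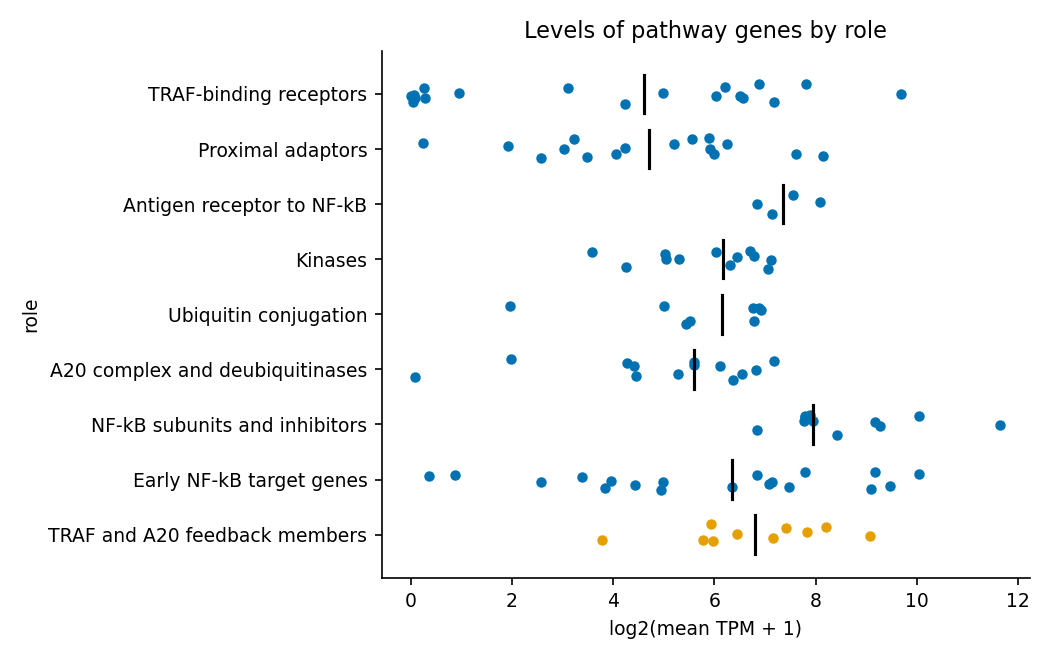
Log2(mean TPM + 1) of each pathway gene, 1 point per gene, by role, with the median of each role as a black line and the 10 members in the bottom row; vertical scatter within a row only separates points. NF-κB subunits and inhibitors have the highest median, 246 TPM, and the members' median is 114 TPM.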

How the data were processed

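RNA from 4 libraries of mouse Th17 cells was sequenced. The authors deposited unnormalized fragment counts, made with featureCounts 1.4.6-p4 over the exons of GENCODE release M13 (mouse), counting reverse-stranded pairs with both ends mapped, per the file headers. As no option for them was recorded, multiply aligned fragments and fragments over several genes were left out. STAR appears in the alignment names, its version being not given in the sources used. Per the labels the assembly is mm10. The assay is titled total RNA-seq, while the linked protocol is named for poly(A)+ RNA.

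TPM was computed here from counts and the deposited union exon length. Symbols and transcript lengths came from GENCODE M21 (50376 of 50600 identifiers matched). No libraries were alike within sampling noise (chi-square per degree of freedom 16.5 to 53.5). Variation between libraries was tested in edgeR 4.0.16 (R 4.3.3) after its expression filter and TMM scaling, in a model holding just the mean. The deviance of each gene, at the dispersion trend, was referred to a chi-square distribution and adjusted by Benjamini-Hochberg over 11567 genes. A quasi-likelihood test needs a coefficient, and 1 group has none. Pairs were compared on log2(TPM + 1) differences (pseudocount 1), flipping signs over the libraries in an exact two-sided permutation test. Alternatives were other normalizations, no filter, DESeq2 1.42.0's dispersion trend, a common dispersion, a pseudocount of 0.1, other scalings, transcript length and leaving out each library.

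The genes named were all 10 members, their partners in the pairs, and the highest and lowest gene of each pathway role; markers, Malat1 and sex-linked genes describe the libraries. The lowest gene of 1 role and the likeness of Traf5 are not reported here. Members and lists were chosen with earlier results of these data known. Counting error is 100 divided by the square root of the count, in percent, and covers counting only, since no molecular identifiers were counted.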

Additional observations from a re-analysis of the deposited data

Results flagged for a closer look

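In 1 of 42 sets of 4 library values examined, 1 library stood apart from the others: Il17rc was at 0 counts in replicates 1, 2 and 4 and at 1 count, 0.0494 TPM, in replicate 3. The gap to the nearest library is the whole range (a share of 1.0) by construction when 3 libraries are at 0, so a single fragment fixes this value and nothing is read from it. No member, pair or share of the TRAF sum stood apart in this way.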

How the results depend on the processing

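The count of members called as varying beyond the trend was 0 of 10 under each of the 9 alternatives run. These were RLE size factors, upper quartile scaling, no filter, DESeq2's dispersion trend, a common dispersion, and leaving out each replicate. The count of all genes called moved from 94 to 92, 87, 85, 94 and 256 in the first 5, and to between 35 and 60 without 1 replicate. Nfkb1 was called with DESeq2's trend and without replicate 3. None of the 10 pairs changed direction under a pseudocount of 0.1 TPM, the longest coding transcript length or without any replicate; with 3 libraries the smallest p is 0.25. The size of a pair depends on the length used: from the union to the transcript length, Tnfaip3 minus Nfkbia went from -1.84 to -1.16, Traf3 minus Traf2 from -0.03 to -0.70, Traf1 minus Traf2 from 1.45 to 2.06 and Traf6 minus Traf2 from 0.49 to 0.10. Mean TPM moved by more than 1 SD for 10 of 10 members with the transcript length, for 4 of 10 when only protein coding genes were scaled, and for 0 of 10 without any replicate; FPKM on TMM library sizes is another unit, and its values differ for that reason. No paired analysis was possible because there is only 1 group, and so no second group whose replicate numbers could be matched; the pairs above are of genes within a library.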
